A study of Mus musculus with 18 samples.

Results

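Etv1, Etv4, Etv5, Fosl1, Epha2, Phlda1, Ier3 and Myc are 8 mouse genes chosen by name as transcription factors and targets that the ERK kinase pathway drives, and their RNA was followed in MC38 tumours treated with a MEK inhibitor, an agonist antibody to CD40 or both. The choice was made with earlier results of these data known. A gene was read from probe sets that the array annotation ties to a single symbol. Of the 8 genes, 7 could be read in this way, among 18193 genes in all. Every probe set of Etv1 also carried a second symbol, Gm5454, so no value is given for Etv1.

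MC38 is a mouse colon carcinoma line, and the cells were inoculated subcutaneously into C57BL/6-Ly5.1 mice aged 6 to 12 weeks. The MEKi/CD40 group (4 tumours) received GDC-0623, an allosteric MEK inhibitor, by mouth every day at 30 mg/kg together with the CD40 mIgG1 antibody, and the MEKi group (5 tumours) received the inhibitor with a control IgG. The anti-CD40 group (4 tumours) received vehicle with the CD40 mIgG1 antibody, and the control group (5 tumours) received vehicle with the control IgG. Mice had 3 early antibody injections, on days 3, 5 and 7 of treatment, and a last one on the eve of tumour collection, which took place 22 days after the cells were inoculated. Each of the 18 arrays holds RNA of a piece of 1 tumour, so a difference in a gene can come with fewer cells of a type or with less RNA per cell, and these cannot be told apart.

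MEK phosphorylates ERK, and active ERK changes transcription through a small set of immediate and delayed response genes. Etv1, Etv4 and Etv5 form the PEA3 group of ETS transcription factors. They are held down by the repressor CIC, which ERK signalling removes, and PEA3 RNA is widely used as a readout of MEK output in tumours. Fosl1 encodes the AP-1 subunit FRA1, Myc encodes a transcription factor of growth and ribosome production, Epha2 encodes a receptor tyrosine kinase for ephrin-A ligands, and Phlda1 and Ier3 encode proteins induced by growth factors and by stress. Ier3 is also a target of NF-kB, which CD40 activates in cells that carry the receptor.

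Sequence upstream of the start site is shown for the members that differed between groups and had an entry in the RefSeq promoter table of build GRCm38.p6, which were Epha2, Etv5 and Ier3. Each line gives the 250 bases before an annotated start, 5′ to 3′ on the strand of the gene. Capitals mark matches, on either strand, to 6 motifs: the ETS core CCGGAA, the AP-1 site TGANTCA, the short CRE site TGACG, the CIC octamer TGAATGAA or TGAATGGA, the CArG box and the NF-kB site.
Epha2, chr4:141300971-141301220, plus strand: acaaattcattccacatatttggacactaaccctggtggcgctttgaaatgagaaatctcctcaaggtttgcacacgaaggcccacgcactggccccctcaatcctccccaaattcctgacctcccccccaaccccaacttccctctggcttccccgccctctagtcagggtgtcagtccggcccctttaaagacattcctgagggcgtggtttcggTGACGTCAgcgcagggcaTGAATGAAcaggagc
Etv5, upstream start, chr16:22439571-22439820, minus strand: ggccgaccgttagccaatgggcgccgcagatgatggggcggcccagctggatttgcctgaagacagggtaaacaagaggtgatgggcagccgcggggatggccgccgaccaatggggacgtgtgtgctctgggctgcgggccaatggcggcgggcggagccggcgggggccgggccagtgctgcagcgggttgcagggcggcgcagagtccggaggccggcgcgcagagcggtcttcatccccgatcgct
Etv5, downstream start, chr16:22438369-22438618, minus strand: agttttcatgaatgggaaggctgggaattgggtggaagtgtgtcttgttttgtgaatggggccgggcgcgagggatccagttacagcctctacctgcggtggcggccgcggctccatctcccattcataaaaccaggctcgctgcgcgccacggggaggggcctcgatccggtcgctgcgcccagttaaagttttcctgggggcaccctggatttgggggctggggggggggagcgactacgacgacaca
Ier3, chr17:35821463-35821712, plus strand: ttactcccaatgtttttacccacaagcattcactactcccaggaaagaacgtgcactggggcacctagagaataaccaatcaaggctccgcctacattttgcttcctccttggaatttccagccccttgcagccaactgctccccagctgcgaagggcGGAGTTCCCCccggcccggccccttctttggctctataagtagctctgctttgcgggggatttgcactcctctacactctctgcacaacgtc

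The Epha2 window held 2 overlapping short CRE sites, 1 on each strand, within 33 to 26 bases before the start, and 1 CIC octamer at 15 to 8 bases. The Ier3 window held 1 NF-kB site, on the minus strand at 92 to 83 bases before the start. Neither Etv5 window matched any of the 6 motifs. Of 32851 such windows of the table, 12% held the ETS core, 6.7% the AP-1 site, 17.8% the short CRE site, 2.1% the CIC octamer, 1.5% the CArG box and 7.3% the NF-kB site. The shorter string TGAATG, the first bases of the CIC octamer, was searched only after the windows had been read and a related run had been seen in Etv5. It occurred 3 times at the downstream Etv5 start, 1 time each in Epha2 and Ier3, and in 10.9% of all windows. The full CRE TGACGTCA was likewise added after reading, and was present in Epha2 and in 1.5% of windows. A match describes letters and shows no binding.

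Values are log2 signals as deposited, 1 per probe set and array, so a difference of 1 is a 2-fold change, and levels of different genes cannot be compared. Array medians were 2.72 to 2.95, arrays of the same group had pairwise correlations of 0.987 to 0.998 across probe sets, and 52.7 to 54.6% of probe sets per array lay at the background level. Of 9 epithelial markers, 8 lay at background on all 18 arrays, Epcam, Krt8, Krt18, Krt19, Krt20, Cldn7, Vil1 and Cdx2, so these markers of colon epithelium were not seen in the tumours. The ninth, Cdh1, was above background on every array, at 5.26 ± 0.61 with MEKi/CD40, 5.84 ± 0.70 with MEKi, 6.42 ± 0.26 with anti-CD40 and 6.45 ± 0.29 in control (mean log2 signal, SD), and was lower with MEKi/CD40 than in control (-1.20 ± 0.30 SE, adjusted p = 0.0349). Markers of neighbouring tissue stood out on 2 MEKi/CD40 arrays. The mean log2 signal of 8 adipocyte markers was 9.62 on MEKi/CD40 array 2 and 5.59 on MEKi/CD40 array 4, against 3.18 to 3.51 on the control arrays, and that of 10 skeletal muscle markers was 8.46 on MEKi/CD40 array 4, against 2.37 to 2.95 on the control arrays. The third highest adipocyte mean was 4.82, on anti-CD40 array 3. Results are therefore also given without these 3 arrays.

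Against control, MEKi/CD40 tumours had lower Etv5, Epha2 and Myc RNA. Fosl1, Etv4, Phlda1 and Ier3 did not pass the test. In this comparison 3 of the 7 measured members passed the test, all downward, beside 14.9% of all probe sets in either direction, 9.37% lower and 5.5% higher (limma, Benjamini-Hochberg adjusted p under 0.05 over 45037 probe sets). The median log2 difference of the members was -0.64, beside 0 for all genes and -0.06 for the 8512 genes with a mean log2 signal of at least 7. With MEKi alone 1 of 7 passed, Etv5, beside 7.83% of all probe sets (3.83% lower and 3.99% higher). With anti-CD40 alone 0 of 7 passed, beside 0 probe sets of 45037. The 3 comparisons share the control arrays. The shares count all probe sets, of which 52.7 to 54.6% per array lay at background, where signal understates differences. Of the members only Etv4 was close to background, so for the others these shares are not a like comparison.

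**Figure D1:**
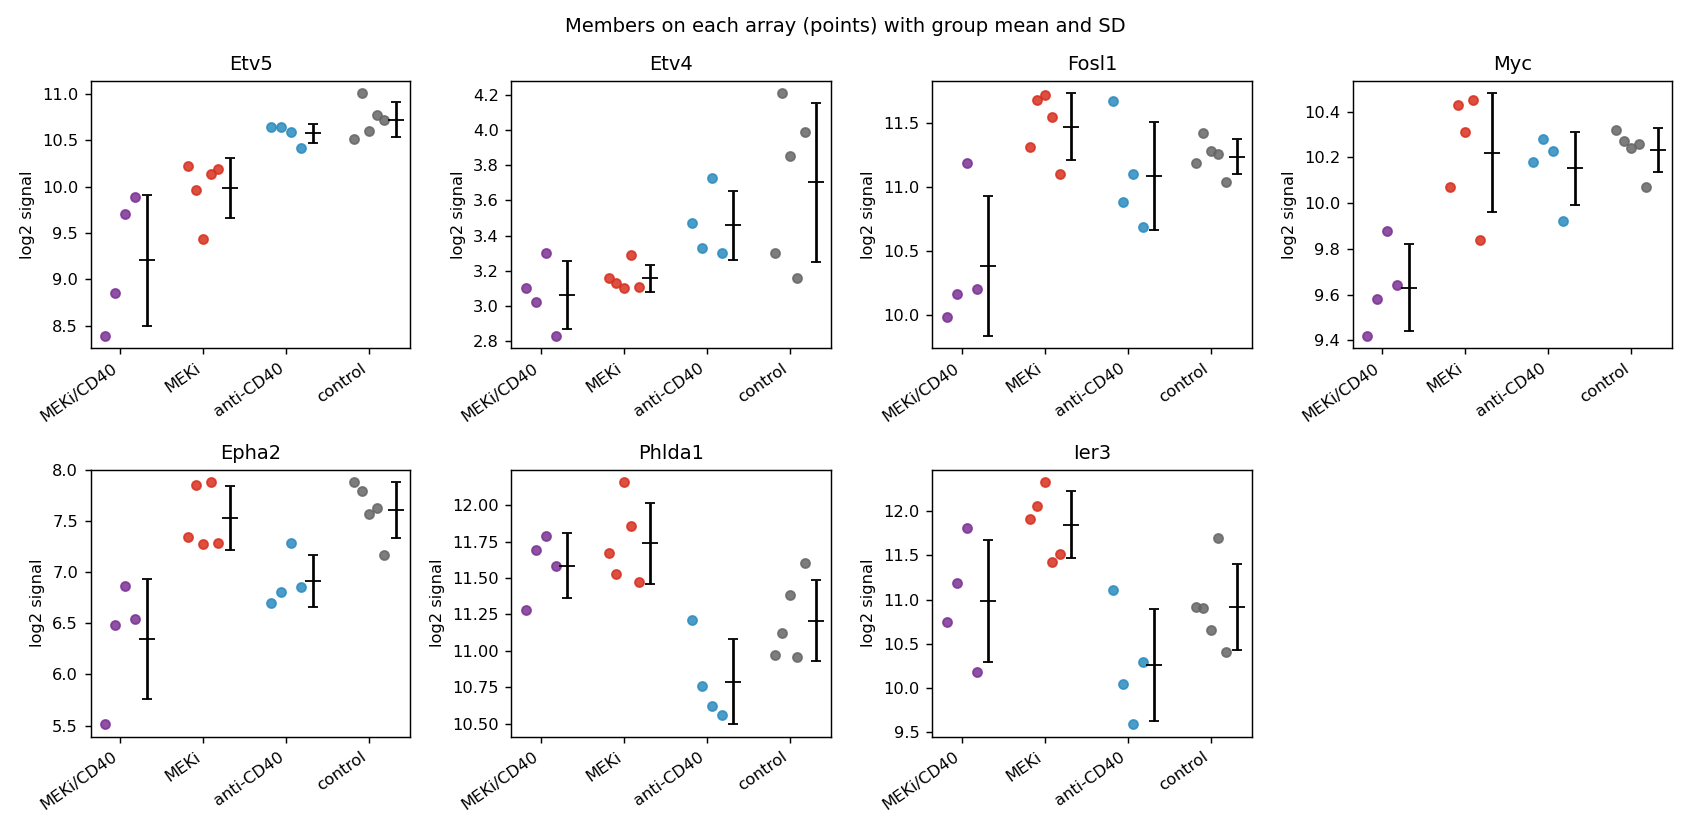
Log2 signal (vertical axes, a separate scale for each gene) of the 7 measured members on each array, by group (horizontal axes). Points are arrays and black bars are the group mean and SD. The MEKi/CD40 arrays of Etv5, Epha2 and Myc all lie below the control arrays, and the MEKi arrays of Phlda1 and Ier3 all lie above the anti-CD40 arrays.

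Etv5 showed the largest fall of the 7 members with MEKi/CD40. Its log2 signal was 8.39, 8.85, 9.70 and 9.89 on the MEKi/CD40 arrays, 10.22, 9.96, 9.44, 10.14 and 10.19 on the MEKi arrays, 10.64, 10.65, 10.59 and 10.42 on the anti-CD40 arrays, and 10.52, 11.01, 10.60, 10.77 and 10.72 on the control arrays. Every array of either inhibitor group lay below every anti-CD40 and control array, and the MEKi/CD40 arrays were spread more widely than the others, with 2 below and 2 within the MEKi range. Etv5 was 2.86-fold lower with MEKi/CD40 than in control (log2 difference -1.52 ± 0.32 SE, adjusted p = 0.0187) and 1.66-fold lower with MEKi (-0.73 ± 0.16, adjusted p = 0.0329). Anti-CD40 alone differed from control by -0.15 ± 0.10 (95% interval -0.39 to 0.09, adjusted p = 0.927). The further difference of MEKi/CD40 from MEKi, -0.78 ± 0.34, did not pass (interval -1.59 to 0.02, adjusted p = 0.313), nor did that from anti-CD40 (-1.37 ± 0.35, adjusted p = 0.0561) or that of MEKi from anti-CD40 (-0.59 ± 0.17, adjusted p = 0.096).

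The other Etv5 probe sets, which are dimmer, ran the same way. On the dimmest the log2 signal was 3.86, 3.63, 4.62 and 4.77 with MEKi/CD40, 4.85, 4.58, 4.81, 5.15 and 5.09 with MEKi, 5.75, 5.68, 6.10 and 5.58 with anti-CD40, and 6.25, 6.52, 5.55, 6.15 and 5.91 in control. Neither inhibitor group overlapped the groups without inhibitor. Against control the difference was -1.86 with MEKi/CD40 (adjusted p = 0.0072) and -1.18 with MEKi (adjusted p = 0.0122). Against anti-CD40 it was -1.56 with MEKi/CD40 (adjusted p = 0.0213) and -0.88 with MEKi (adjusted p = 0.026), so on this probe set, unlike on the brightest, all 4 contrasts with an uninhibited group passed. Its signal with MEKi/CD40, 3.63 to 4.77, was not far above background, so the size of these differences is uncertain. On the second brightest the difference from control was -0.59 with MEKi (adjusted p = 0.0383), while -1.56 with MEKi/CD40 did not pass (adjusted p = 0.082), with MEKi/CD40 array 1 at 5.15 and the other MEKi/CD40 arrays at 6.42, 7.41 and 7.52.

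**Figure D2:**
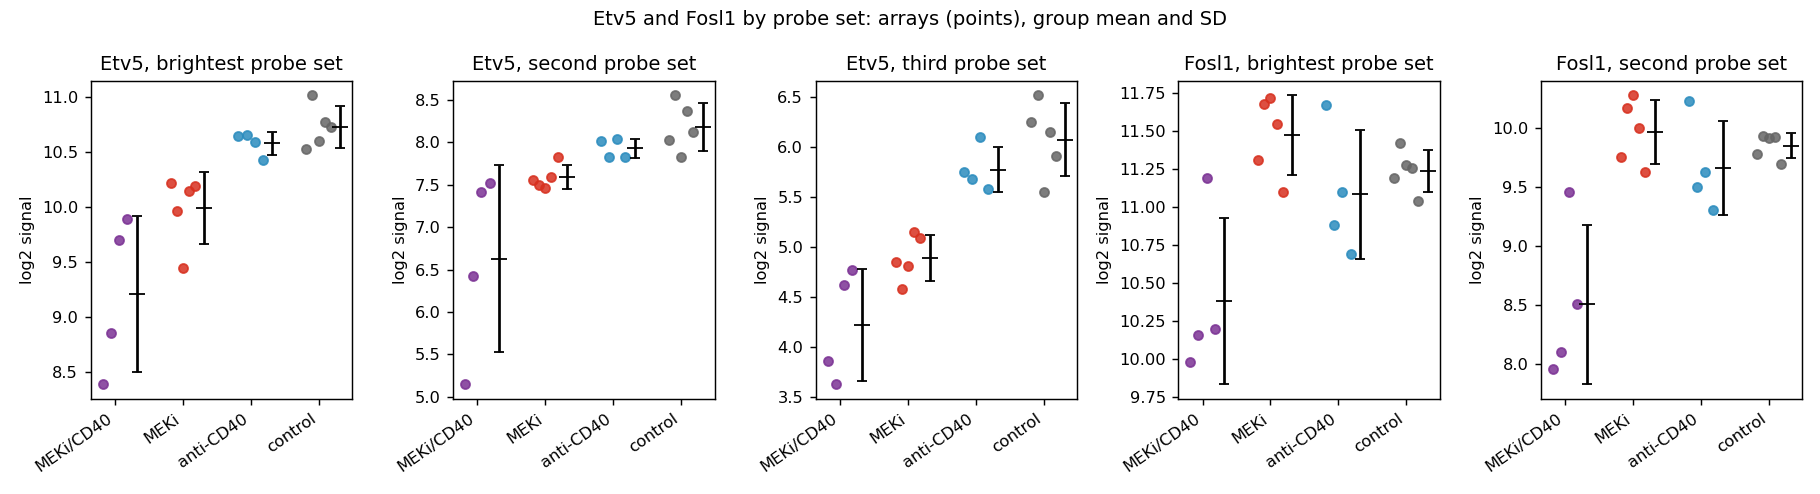
Log2 signal (vertical axes) by group (horizontal axes) for the 3 probe sets of Etv5 and the 2 of Fosl1, with each array as a point and the group mean and SD in black. All 3 Etv5 probe sets place both inhibitor groups below the anti-CD40 and control arrays, and both Fosl1 probe sets have their lowest mean with MEKi/CD40.

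Etv4, the second PEA3 factor, was close to background throughout. Its brightest probe set read 2.83 to 3.30 on the MEKi/CD40 arrays, 3.10 to 3.29 with MEKi, 3.30 to 3.73 with anti-CD40 and 3.16 to 4.21 in control, and another of its probe sets lay at the lowest deposited value on all 18 arrays. The control arrays held both the brightest values and 1 of the dimmer ones. The differences from control, -0.64 ± 0.24 with MEKi/CD40 (adjusted p = 0.136) and -0.54 ± 0.20 with MEKi (adjusted p = 0.154), did not pass, and no fold is given at this signal.

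Fosl1, the AP-1 subunit FRA1, behaved unlike Etv5: its highest group mean was with MEKi and its lowest with MEKi/CD40. The log2 signal was 9.98, 10.16, 11.19 and 10.20 with MEKi/CD40, 11.31, 11.68, 11.72, 11.55 and 11.10 with MEKi, 11.67, 10.88, 11.10 and 10.69 with anti-CD40, and 11.19, 11.42, 11.28, 11.26 and 11.04 in control. MEKi/CD40 array 3 lay within the control range and the other MEKi/CD40 arrays lay below all other arrays. Of the MEKi/CD40 arrays, array 3 also had the highest mean log2 signal of macrophage (12.18), neutrophil (6.29), endothelial (7.86) and T cell markers (7.29). Any part of this in its Fosl1 signal was not tested. The difference of MEKi/CD40 from control, -0.86 ± 0.24, did not pass (adjusted p = 0.0579), and without MEKi/CD40 array 3 it was -1.12 (adjusted p = 0.0015). Of 9 such runs with 1 array left out only this 1 passed, and adjusted p reached 0.146 in the others. MEKi differed from control by 0.23 ± 0.13 (interval -0.06 to 0.53, adjusted p = 0.395), and MEKi/CD40 from MEKi by -1.09 ± 0.27 (adjusted p = 0.0837).

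The second Fosl1 probe set read 7.96, 8.10, 9.46 and 8.51 with MEKi/CD40, 9.76, 10.17, 10.28, 10.00 and 9.63 with MEKi, 10.23, 9.50, 9.63 and 9.31 with anti-CD40, and 9.78, 9.94, 9.92, 9.93 and 9.70 in control, so that the MEKi/CD40 arrays overlapped neither MEKi nor control but overlapped anti-CD40. The difference of MEKi/CD40 from control was -1.35 (adjusted p = 0.022), and those from MEKi (-1.46, adjusted p = 0.0631) and from anti-CD40 (-1.16, adjusted p = 0.119) did not pass. The interaction, the part of the combined log2 effect that adding up the effects of each drug alone leaves over, was -0.94 ± 0.33 on the brightest probe set (adjusted p = 0.172) and -1.27 on the second (adjusted p = 0.0854). Of the members, 0 of 7 passed the interaction test, beside 2.64% of all probe sets (1.06% higher and 1.58% lower).

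Myc was lower with MEKi/CD40 than in either single treatment or control by group mean, by a small and even amount. Its log2 signal was 9.42, 9.58, 9.88 and 9.64 with MEKi/CD40, 10.07, 10.43, 10.31, 10.45 and 9.84 with MEKi, 10.18, 10.28, 10.23 and 9.92 with anti-CD40, and 10.32, 10.27, 10.24, 10.26 and 10.07 in control. The MEKi/CD40 arrays lay below all anti-CD40 and control arrays and overlapped MEKi through MEKi array 5. Myc was 1.52-fold lower with MEKi/CD40 than in control (-0.60 ± 0.09, adjusted p = 0.00635) and 1.44-fold lower than with anti-CD40 (-0.52 ± 0.12, adjusted p = 0.0415). MEKi alone differed from control by -0.01 ± 0.12, with an interval of -0.29 to 0.27 (adjusted p = 1). MEKi/CD40 differed from MEKi by -0.59 ± 0.15 (adjusted p = 0.0946), and the interaction was -0.51 ± 0.18 (adjusted p = 0.155).

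Epha2, the ephrin-A receptor, was lowest with MEKi/CD40 and lower with anti-CD40 than in control by mean. Its log2 signal was 5.51, 6.48, 6.87 and 6.54 with MEKi/CD40, 7.35, 7.86, 7.28, 7.88 and 7.29 with MEKi, 6.70, 6.81, 7.29 and 6.86 with anti-CD40, and 7.88, 7.80, 7.57, 7.63 and 7.17 in control. The MEKi/CD40 arrays overlapped neither MEKi nor control but overlapped anti-CD40, and MEKi/CD40 array 1 was the lowest of all. Epha2 was 2.40-fold lower with MEKi/CD40 than in control (-1.26 ± 0.29, adjusted p = 0.025). MEKi differed from control by -0.08 ± 0.18 (interval -0.49 to 0.34, adjusted p = 1). The difference of anti-CD40 from control, -0.70 ± 0.18, had the smallest unadjusted p of the members in that comparison, 0.00499, and did not pass after adjustment (0.649). MEKi/CD40 differed from MEKi by -1.18 ± 0.29 (adjusted p = 0.0864). In MEKi/CD40 against MEKi 0 of 7 members passed, beside 2.5% of all probe sets (0.737% higher and 1.77% lower).

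Phlda1, a pleckstrin homology-like protein, and Ier3, an early response protein, had their highest means in MEKi tumours. Phlda1 read 11.28, 11.69, 11.79 and 11.58 with MEKi/CD40, 11.67, 11.53, 12.16, 11.86 and 11.47 with MEKi, 11.21, 10.76, 10.62 and 10.56 with anti-CD40, and 10.97, 11.12, 11.38, 10.96 and 11.60 in control. Both inhibitor groups lay above all anti-CD40 arrays and overlapped control. Phlda1 was 1.74-fold higher with MEKi/CD40 than with anti-CD40 (0.80 ± 0.18, adjusted p = 0.0373), a comparison in which it and Myc were the 2 of 7 members that passed, beside 11.6% of all probe sets (4.42% higher and 7.19% lower). With MEKi it was 1.93-fold higher than with anti-CD40 (0.95 ± 0.19, adjusted p = 0.0357). Against control the differences were 0.38 ± 0.17 with MEKi/CD40 (adjusted p = 0.215) and 0.53 ± 0.17 with MEKi (adjusted p = 0.105), which did not pass.

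Ier3 read 10.75, 11.19, 11.81 and 10.18 with MEKi/CD40, 11.91, 12.06, 12.33, 11.42 and 11.51 with MEKi, 11.11, 10.05, 9.59 and 10.30 with anti-CD40, and 10.92, 10.91, 10.66, 11.70 and 10.41 in control. All MEKi arrays were above all anti-CD40 arrays, control array 4 reached into the MEKi range, and the MEKi/CD40 arrays spanned most of the range of the other groups. Ier3 was 3.00-fold higher with MEKi than with anti-CD40 (1.58 ± 0.33, adjusted p = 0.0422), and there Ier3 and Phlda1 were the 2 of 7 members that passed, beside 5.09% of all probe sets (2.83% higher and 2.26% lower). The difference of MEKi from control, 0.93 ± 0.27, did not pass (adjusted p = 0.076), and without control array 4 it was 1.12 (adjusted p = 0.0339). Of 10 such runs with 1 array left out only this 1 passed, and adjusted p reached 0.16 in the others. MEKi/CD40 differed from control by 0.06 ± 0.38, an interval of -0.83 to 0.95 (adjusted p = 1).

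**Figure D3:**
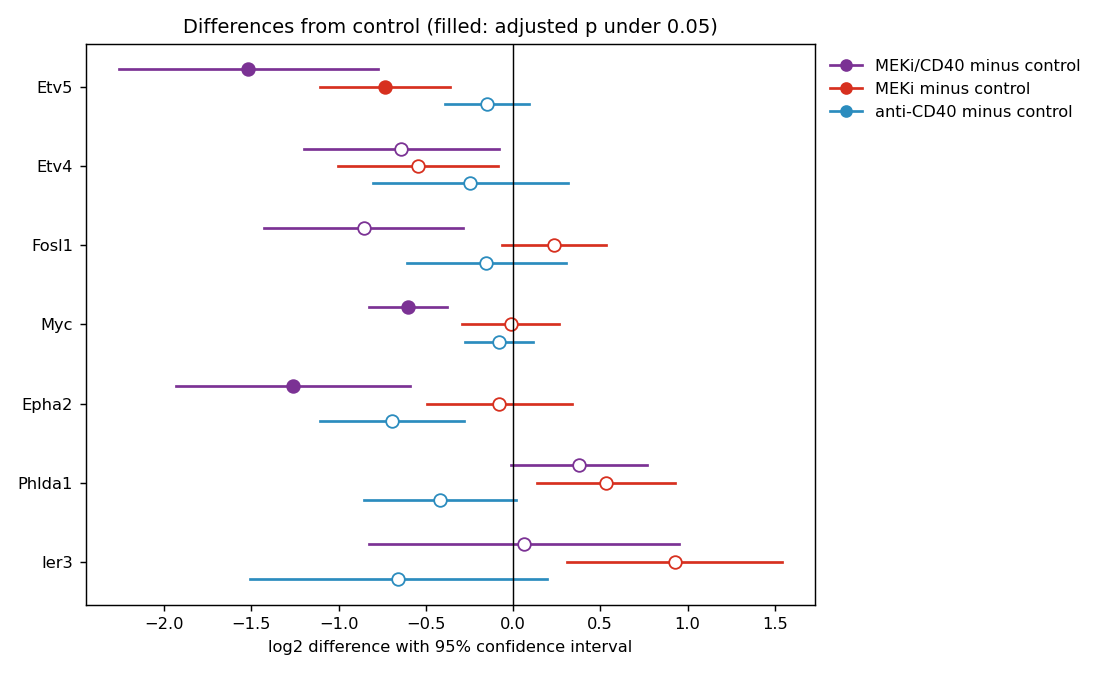
Log2 differences from control (horizontal axis) with 95% confidence intervals for the 7 members (rows), in MEKi/CD40, MEKi and anti-CD40 tumours. Filled points passed an adjusted p under 0.05: Etv5, Myc and Epha2 with MEKi/CD40, and Etv5 with MEKi.

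By group mean the members fell into 4 orders. Etv5 and Etv4 ran control, anti-CD40, MEKi, MEKi/CD40 from high to low, Epha2 and Myc ran control, MEKi, anti-CD40, MEKi/CD40, Fosl1 ran MEKi, control, anti-CD40, MEKi/CD40, and Phlda1 and Ier3 ran MEKi, MEKi/CD40, control, anti-CD40. On the brightest probe sets no neighbours in these orders differed past the threshold except MEKi/CD40 and anti-CD40 for Myc. Across the 18 arrays, which share treatment groups, the Pearson correlation was 0.867 for Fosl1 and Myc and 0.842 for Epha2 and Myc, and 0.706 and 0.69 after each group mean had been subtracted. For Phlda1 and Etv5 it was -0.474, and 0.054 after the subtraction.

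The genes whose values ran most like each member, among 2433 genes with a mean log2 signal of at least 7 and an SD of at least 0.3, are given as a description with Pearson's r over the 18 arrays. For Etv5 they were the centriole gene Stil (0.948), the kinetochore gene Cenpq (0.947) and the cell cycle repressor E2f8 (0.944). For Fosl1 they were the ERK phosphatase Dusp5 (0.899), Nt5dc3 (0.883) and Myc (0.867), and for Myc Eef1e1, a member of the aminoacyl-tRNA synthetase complex (0.921), the choline kinase Chka (0.891) and the thiamine transporter Slc19a2 (0.877). For Epha2 they were Bbs12 (0.894), the importin Ipo11 (0.877) and the RNA helicase Ddx46 (0.867). For Phlda1 they were the Notch effector Rbpj (0.856), Fam214b (0.842) and Crim1 (0.84), and for Ier3 the poliovirus receptor Pvr (0.881), the small MAF factor Maff (0.866) and the cell cycle inhibitor Cdkn1a (0.862). Etv4 was too near background to be searched.

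Other genes of the pathway are given by list, and their counts are to be read beside the shares of all probe sets, 14.9% with MEKi/CD40 and 7.83% with MEKi against control. These shares include the many probe sets at background. The lists here and the marker lists below were chosen with earlier results of these data known, so their counts are descriptions. Of 10 measured feedback inhibitors of ERK, 1 rose and 1 fell with MEKi/CD40 against control (median -0.43), which is close to the share of all probe sets. The phosphatase Dusp4 fell (-0.88 ± 0.17, adjusted p = 0.0128) and Spry2 rose (0.78 ± 0.16, adjusted p = 0.0193). Dusp6, a phosphatase that acts on ERK itself, averaged 11.38 ± 0.85 with MEKi/CD40, 12.41 ± 0.29 with MEKi, 12.45 ± 0.13 with anti-CD40 and 12.65 ± 0.17 in control (log2 signal, SD), and -1.28 ± 0.37 with MEKi/CD40 against control did not pass (adjusted p = 0.0625). With MEKi alone Spry2 was the 1 gene of the 10 that passed (0.68 ± 0.12, adjusted p = 0.0177), and with anti-CD40 0 of 10 passed.

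Of 5 measured regulators of PEA3 factors, 1 rose and 1 fell with MEKi/CD40 against control. Atxn1, a partner of CIC, rose by 0.93 ± 0.13 (adjusted p = 0.00459), and by 0.93 ± 0.14 with MEKi (adjusted p = 0.0101). Det1, part of the ubiquitin ligase that removes PEA3 proteins, fell (-0.62 ± 0.07, adjusted p = 0.0023). Of 18 other ETS factors, 1 rose and 2 fell. Those that fell were Erf, an ETS repressor that ERK phosphorylates (-0.67 ± 0.05, adjusted p = 0.000656), and Ets1 (-0.46 ± 0.07, adjusted p = 0.00488). With MEKi 3 of the 18 fell, Erf (-0.47 ± 0.09, adjusted p = 0.0173), Fli1 (-0.82 ± 0.18, adjusted p = 0.0298) and Spi1 (-0.89 ± 0.22, adjusted p = 0.0436). Spi1 is the myeloid factor PU.1. In the same comparison 4 of 9 macrophage markers fell, and with MEKi/CD40 against control 1 of 9 fell. Any link of these markers to Spi1 was not tested.

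Of 13 other AP-1 and immediate early factors, 2 rose and 0 fell with MEKi/CD40 against control, Fosl2, the FRA2 subunit (1.03 ± 0.15, adjusted p = 0.00489), and Jund (0.56 ± 0.13, adjusted p = 0.0303), again close to the 14.9% of all probe sets. With MEKi 2 of 13 rose, beside 7.83% of all probe sets. These were Fosl2 (0.93 ± 0.13, adjusted p = 0.00917) and Ier5 (0.40 ± 0.10, adjusted p = 0.0451). Of 14 Eph receptors and ephrin-A ligands 3 rose and 0 fell in both comparisons, and the receptors Epha3 and Ephb3 with MEKi/CD40 rose by 3.20 ± 0.38 (adjusted p = 0.00237) and 2.65 ± 0.39 (adjusted p = 0.00491), while Epha2 fell. Ephb3 was near background in control (3.60 ± 0.50, SD). Epha7 rose as well, by 1.32 ± 0.22 (adjusted p = 0.0073).

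Of 12 genes that MYC induces, 8 fell with MEKi/CD40 against control (median -0.55) and 4 with MEKi (median -0.24), and 0 rose in either. Odc1, the first enzyme of polyamine synthesis, fell by 0.99 ± 0.15 with MEKi/CD40 (adjusted p = 0.00567), Pa2g4, a ribosome biogenesis protein, by 0.68 ± 0.10 (adjusted p = 0.00433), the kinase Cdk4 by 0.40 ± 0.05 (adjusted p = 0.00255) and the nucleolar protein Npm1 by 0.39 ± 0.06 (adjusted p = 0.00533). With MEKi Npm1 fell by 0.22 ± 0.05 (adjusted p = 0.0299). Of 11 genes of the MYC and MAX network 2 rose and 2 fell with MEKi/CD40. The MAX partner Mxd4 rose (1.13 ± 0.19, adjusted p = 0.00836) and Mxd3 fell (-1.17 ± 0.14, adjusted p = 0.00228). Of 9 other genes of MEK-dependent signatures 2 rose with MEKi/CD40, the phosphatase Dusp1 (1.07 ± 0.24, adjusted p = 0.0241) and the EGFR inhibitor Errfi1 (1.19 ± 0.31, adjusted p = 0.0429), and of 3 other Phlda and Ier genes 1 rose, Phlda3 (0.69 ± 0.18, adjusted p = 0.0466).

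The levels of proliferation genes and of markers of other cells also differed between the groups. The mean log2 signal of 11 proliferation genes was 10.12 ± 0.37 with MEKi/CD40, 10.73 ± 0.26 with MEKi, 11.39 ± 0.15 with anti-CD40 and 11.45 ± 0.16 in control (SD), and 10 of the 11 fell with MEKi/CD40 and 9 with MEKi. That of 10 fibroblast markers was 13.10 ± 0.11 with MEKi/CD40, 12.13 ± 0.33 with MEKi, 11.14 ± 0.42 with anti-CD40 and 10.71 ± 0.32 in control, and 9 of the 10 rose with MEKi/CD40 and 5 with MEKi. That of 6 neutrophil markers was 5.23 ± 0.75 with MEKi/CD40, 4.13 ± 0.43 with MEKi, 4.00 ± 0.39 with anti-CD40 and 3.27 ± 0.11 in control. Of these 6, S100a8 and S100a9 rose with MEKi/CD40 (adjusted p = 0.0019 and 0.00111) and with MEKi (0.0181 and 0.0443), with control arrays at or near background, and Cxcr2 and Ngp were at background on all arrays. Csf3r, above background on all arrays, did not pass in either comparison (0.14 ± 0.32 with MEKi/CD40 and -0.40 ± 0.23 with MEKi). That of 8 epidermis markers was 4.51 ± 0.26 with MEKi/CD40, 4.12 ± 0.38 with MEKi, 3.49 ± 0.09 with anti-CD40 and 3.45 ± 0.11 in control. Of these 8, Sbsn (3.69 ± 0.44, adjusted p = 0.00251) and Dmkn (adjusted p = 0.0139, at background on all control arrays) rose with MEKi/CD40, and Krt1 and Flg were at background on all arrays. T cell markers (6 genes) averaged 7.11 ± 0.64 with anti-CD40, 6.62 ± 0.58 with MEKi/CD40, 6.19 ± 0.49 with MEKi and 5.69 ± 0.79 in control (SD). Of these 6, 0 passed in any comparison with control. Macrophage markers (9 genes) averaged 11.13 ± 0.73 with MEKi/CD40, 10.63 ± 0.31 with MEKi, 11.18 ± 0.13 with anti-CD40 and 11.51 ± 0.16 in control. Endothelial markers (6 genes) averaged 6.85, 6.22, 6.39 and 6.36 in MEKi/CD40, MEKi, anti-CD40 and control. The part of any of these lists in the values of Etv5, Myc and the other members was not tested. Without the 3 arrays highest in adipocyte markers, the difference of MEKi/CD40 from control was -1.68 for Etv5 (adjusted p = 0.0569), -1.42 for Epha2 (adjusted p = 0.11) and -0.58 for Myc (adjusted p = 0.07), and 0 of the 7 members passed with 2 MEKi/CD40 arrays left. With the adipocyte mean as a covariate Myc passed (adjusted p = 0.0402), and Etv5 (adjusted p = 0.094) and Epha2 (adjusted p = 0.0685) did not. The numbers in the sample titles were split into a low and a high series, and the labels do not state what the numbers mean. Only control arrays 3 to 5 and MEKi arrays 3 to 5 are in the high one. The widest gap in the numbers lies inside the low series. All anti-CD40 arrays and the other MEKi arrays are below that gap, and all MEKi/CD40 arrays and the other control arrays are above it. By number, anti-CD40 is thus wholly apart from MEKi/CD40 and control. The series treats these arrays as alike, so any effect of that gap was not tested. Within the low series MEKi/CD40 differed from control by -1.56 for Etv5 (adjusted p = 0.25), -1.49 for Epha2 (adjusted p = 0.18) and -0.67 for Myc (adjusted p = 0.104), with 2 control arrays, and with the series as a block Myc passed (adjusted p = 0.028) while Etv5 (adjusted p = 0.09) and Epha2 (adjusted p = 0.0615) did not.

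**Figure D4:**
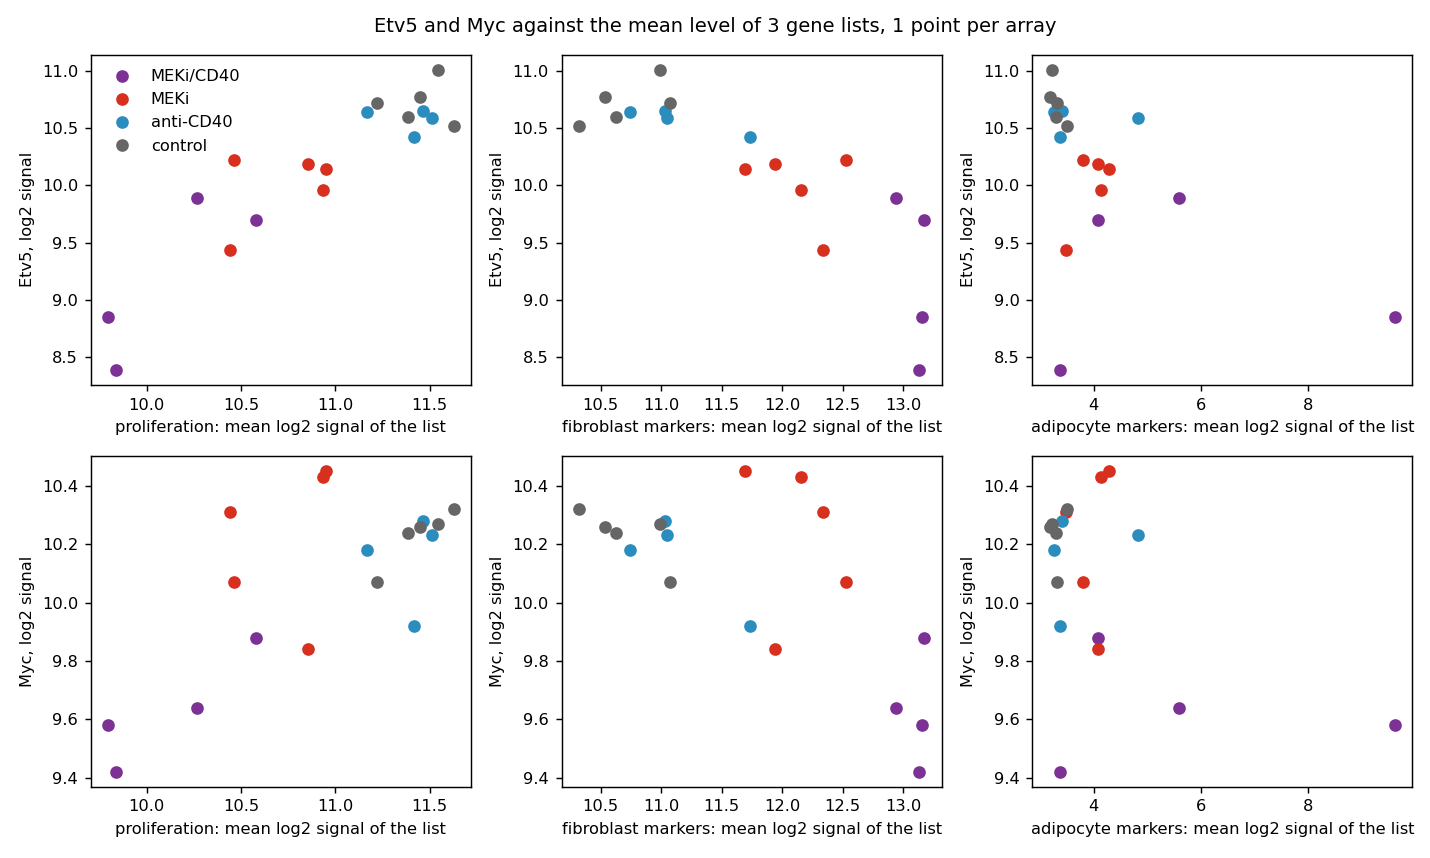
Log2 signal of Etv5 and Myc (vertical axes) against the mean log2 signal of the proliferation, fibroblast and adipocyte lists (horizontal axes), with 1 point per array coloured by group. The MEKi/CD40 arrays combine Myc values of 9.42 to 9.88 with fibroblast means of 12.94 to 13.18. The array with an adipocyte mean of 9.62 has an Etv5 signal of 8.85 and a Myc signal of 9.58, in each case second to MEKi/CD40 array 1 as the lowest.

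The calls differed in how far they rested on single arrays. Myc with MEKi/CD40 against control passed without any 1 array. Etv5 passed in that comparison except without MEKi/CD40 array 2 (adjusted p = 0.0548), and its difference ranged from -1.74 to -1.24. Epha2 lost its call without any of 6 single arrays, control 1 to 4 and MEKi/CD40 2 and 4 (adjusted p up to 0.064). Etv5 with MEKi lost its call without any of 7, the 5 control arrays and MEKi 1 and 2 (adjusted p up to 0.0735). The calls against anti-CD40 were each lost without 6 to 8 single arrays, with adjusted p up to 0.123.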

How the data were processed

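RNA from pieces of tumour, labelled as whole tumour, was hybridised to 18 single-colour Affymetrix Mouse430_2 arrays. The deposited values are log2 signals that the authors made with RMA in Chipster (version not given in the sources used here). They ran from 2.16 to 16.34 and 34.5% equalled the lowest value, so the background step is uncertain, and signal near it understates differences. From 45101 probe sets 64 controls were removed. Of the rest, 34945 had 1 gene symbol, 932 several and 9160 none. The single-symbol set with the highest mean stood for a gene, and sets ending in _x_at were passed over where another existed. No filter or further normalization was applied. Each pair of groups was fitted with limma 3.58.1 (R 4.3.3, statmod 1.5.0) and the interaction over all 18 arrays, with Benjamini-Hochberg adjustment over 45037 probe sets. The prior of limma carried 0.351 to 0.393 degrees of freedom beside 6 to 14 residual ones, so variances were hardly shared between probe sets. The fits were tried on simulated normal data with known changes. Those data held no outlying arrays and no number series, so they cannot show how such features move the calls. The number of arrays limits the precision. All members were described. From each of the other 19 lists (178 of 187 entries measured) up to 4 genes in order of unadjusted p were eligible to be named. Members and lists were chosen with earlier results of these data known. Alternatives covered filtering, centring, cyclic loess, probe set choice, moderation, a joint model, blocks, the adipocyte covariate and leaving out arrays.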

Additional observations from a re-analysis of the deposited data

How the results depend on the processing

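No called difference of a member changed sign, and of 1057 alternative values over 49 member differences 935 kept direction and side of the threshold, 79 lost a call, 30 gained one and 13 changed sign, all 13 uncalled. Most of the 49 differences were uncalled and could not lose a call. The 79 losses therefore fell on the few called differences alone, which had 18 or 21 alternatives each. The number of members called in MEKi/CD40 against control (3) was 5 after centring arrays on bright probe sets and 5 with all 18 arrays in 1 model, 1 with the adipocyte covariate, 1 with the number series in the sample titles as a block, 0 within the low number series and 0 without the 3 arrays highest in adipocyte markers. In MEKi against control (1) it was 3 with a filter of at least 5 on 4 arrays, and 0 with the trend and robust moderation, the joint model, the low series or the covariate. In MEKi/CD40 against anti-CD40 (2) it was 1 with cyclic loess and 0 with trend and robust moderation, the covariate or without the 3 arrays. In MEKi/CD40 against MEKi (0) it was 3 with the filter and 3 with the joint model. In MEKi against anti-CD40 (2) it was 4 with the filter and 0 with trend and robust moderation, the number series as a block, the low series or without the 3 arrays. The cause was not tested. The low series and the setting without the 3 arrays use fewer arrays, while trend and robust moderation and the block keep all arrays of a comparison.

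With a replicate block, 0 members were called in MEKi/CD40 against control (adjusted p 0.139 for Etv5, 0.157 for Epha2 and 0.0916 for Myc), 0 in MEKi against control, 1 in MEKi/CD40 against anti-CD40 and 0 in MEKi against anti-CD40, and Ier3 in MEKi/CD40 against control was -0.065. The replicate numbers did not pair the tumours: 25 same-number pairs of arrays correlated at -0.409 to 0.304 in their deviations, and 3 of 18 arrays correlated best with their own number.

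Leaving out 1 array at a time gave 1 to 4 members called in MEKi/CD40 against control, 0 to 1 in MEKi against control, 0 in anti-CD40 against control, 0 to 2 in MEKi/CD40 against anti-CD40, 0 to 1 in MEKi/CD40 against MEKi, 0 to 2 in MEKi against anti-CD40 and 0 to 1 for the interaction. Uncalled signs changed for Ier3 in MEKi/CD40 against control (-0.2133 to 0.33), Myc in MEKi against control (-0.0695 to 0.083, and 0 after centring), Myc in MEKi against anti-CD40 (-0.01 to 0.1625), Ier3 in the interaction (-0.4818 to 0.0765) and, without the 3 arrays, Etv4 in MEKi/CD40 against MEKi (0.042).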
